A study of Mus musculus with 9 samples.

Results

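The RNA levels of the epidermal growth factor (EGF) receptor family were examined in mouse primary renal tubular epithelial cells. The family was taken as 10 genes, found by their symbols among the 31167 genes of the deposited expression table. They are 3 receptors (Egfr, Erbb2 and Erbb3), 6 ligands (Hbegf, Areg, Ereg, Tgfa, Btc and Epgn) and 1 inhibitor (Errfi1). The cells were isolated from C57BL/6 mouse kidney and sequenced as 3 groups of 3 libraries. Sham cells were the negative control, H/R cells were kept in glucose-free medium at 1.0% oxygen for 6 h and then reoxygenated for 18 h, and EGR1OV cells were transfected with an overexpression plasmid for Egr1, a zinc finger transcription factor, driven by a CMV promoter. No group given an empty plasmid was among those compared here, and the study describes the Sham cells as untreated. The effect of Egr1 therefore cannot be told apart from that of transfection in EGR1OV cells. The labels do not say that replicates came from separate cultures or animals, so p-values measure the spread between these libraries, which may be technical.

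Ligands of this family are made as membrane-bound precursors that are cut free by ADAM metalloproteases. They bind Egfr (also called ErbB1), which pairs with itself or with Erbb2 or Erbb3 and drives the Ras-ERK and PI3K-Akt pathways. Erbb2 has no known ligand of its own, Erbb3 has little kinase activity and binds neuregulins, and Errfi1 (also called Mig6) is a feedback inhibitor that binds the kinase domain of Egfr. In the kidney tubule the receptor is known for its part in epithelial growth and in regrowth after injury.

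Promoters are shown for the called members with an entry in the sequence table used, Areg, Btc and Egfr, and for Errfi1, which holds another match to a motif searched. RefSeq promoter entries, 250 bases before to 50 bases after a transcription start on GRCm38.p6, were matched for 7 of the 10 genes, with 2 starts for Errfi1. Erbb3, Hbegf and Ereg were not matched. Both strands were searched for the Egr1 site GCGTGGGCG, its variant GCGGGGGCG, the cyclic AMP response element TGACGTCA, the AP-1 site TGANTCA and the hypoxia response core ACGTG. Capitals mark the matches.
Areg, chr5:91139349-91139648, plus strand: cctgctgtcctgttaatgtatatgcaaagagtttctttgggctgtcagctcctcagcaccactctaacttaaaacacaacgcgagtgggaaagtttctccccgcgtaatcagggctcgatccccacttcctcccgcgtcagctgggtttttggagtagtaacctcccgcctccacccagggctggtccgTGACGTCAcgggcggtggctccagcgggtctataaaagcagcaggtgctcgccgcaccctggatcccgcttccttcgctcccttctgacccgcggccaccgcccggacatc
Btc, chr5:91402945-91403244, minus strand: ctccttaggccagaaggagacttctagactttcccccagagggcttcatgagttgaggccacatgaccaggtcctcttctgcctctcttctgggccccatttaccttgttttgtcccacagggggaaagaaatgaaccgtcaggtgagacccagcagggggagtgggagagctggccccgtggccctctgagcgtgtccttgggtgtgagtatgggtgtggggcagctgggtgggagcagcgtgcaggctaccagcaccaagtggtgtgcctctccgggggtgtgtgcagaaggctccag
Egfr, chr11:16751953-16752252, plus strand: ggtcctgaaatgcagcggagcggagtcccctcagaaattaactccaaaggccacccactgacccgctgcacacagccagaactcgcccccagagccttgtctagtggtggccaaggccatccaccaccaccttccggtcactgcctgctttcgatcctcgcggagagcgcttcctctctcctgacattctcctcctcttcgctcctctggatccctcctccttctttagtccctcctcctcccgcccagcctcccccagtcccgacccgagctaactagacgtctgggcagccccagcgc
Errfi1, chr4:150854820-150855119, plus strand: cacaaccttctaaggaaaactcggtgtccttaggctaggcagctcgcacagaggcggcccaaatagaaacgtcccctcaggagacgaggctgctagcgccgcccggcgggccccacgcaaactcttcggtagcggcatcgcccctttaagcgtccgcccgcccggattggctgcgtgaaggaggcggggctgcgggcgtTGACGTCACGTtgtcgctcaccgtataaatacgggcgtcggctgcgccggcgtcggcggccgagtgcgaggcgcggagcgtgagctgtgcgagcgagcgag

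The Areg promoter held 1 match to TGACGTCA, which was found in 1.79% of the 32851 promoters of the same length. The Errfi1 promoter shown held 1 match to TGACGTCA and 1 to ACGTG, on overlapping bases. The core ACGTG was found in 19.6% of all promoters and the AP-1 site in 7.81%. Neither Egr1 site was found in the 8 windows of these genes, against 0.612% of all promoters for GCGTGGGCG and 2.91% for GCGGGGGCG. At shares this low, finding none in 8 windows says little about these genes, and other forms of the site were not searched. The windows of Btc and Egfr held none of the 5 motifs as spelled here, and other forms of the hypoxia response core were not searched. A match describes letters in a window and is not a binding measurement.

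Expression was read as FPKM, a fragment count divided by exon length and library depth, so that levels can be compared between genes. Libraries were close in depth, at 16183617 to 18384022 reads recovered from the FPKM steps. Egr1 averaged 42.6 ± 2.84 FPKM in the EGR1OV libraries (mean ± SD, n = 3, as for all means here), where plasmid reads can count as Egr1, against 6.40 ± 0.443 in Sham cells and 7.88 ± 0.599 after H/R. The row Gm23935 ranged from 1490 to 21700 FPKM over the libraries, and from 1700 to 19600 within Sham, so a fit with its level as a covariate was also run. The libraries carried epithelial markers such as Krt8 and Epcam, while the proximal tubule transporter Slc34a1 was at 0.0209 FPKM or less in every group mean.

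The members covered a wide range of levels, and the upper part of their order was the same in every group. In FPKM, Hbegf stood above Errfi1, then Egfr, Erbb2, Erbb3 and Tgfa, and the libraries of neighbours in this order did not overlap in any group. Among all 13985 genes tested, 98.4% lay below Hbegf in Sham, 94.4% below Errfi1 and 93.8% below Egfr. Erbb2 stood above 60.6% of tested genes, Erbb3 above 45.8% and Tgfa above 37.0%. At the low end Ereg stood above 12.2%, Btc above 9.9% and Areg above 2.3%. Ereg and Btc overlapped between libraries in Sham, and Btc and Areg overlapped in H/R. In EGR1OV the order of these low ligands was Btc, Areg and Ereg, with no overlap between neighbours. Hbegf made up 96.5% ± 0.153 of the FPKM summed over the 6 ligands in Sham.

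**Figure D1:**
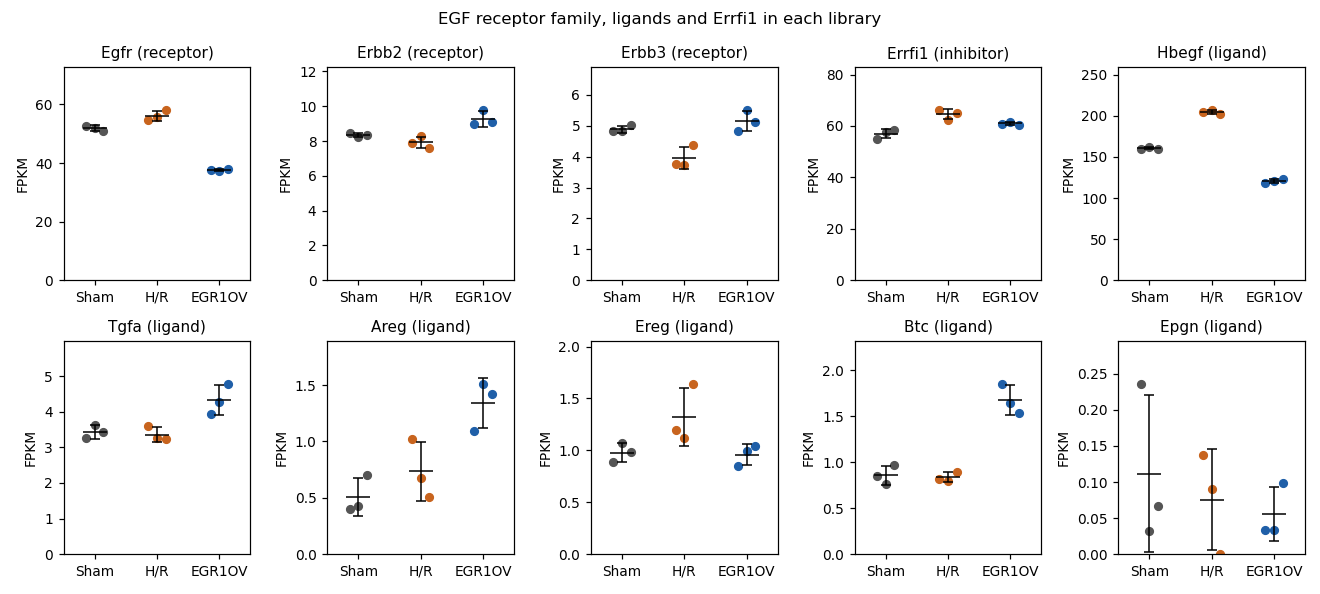
FPKM of the 10 genes by group, with a panel and a linear axis from 0 for each gene; points are libraries and bars are the mean ± SD of 3 libraries. Hbegf, Errfi1 and Egfr lie above 37 FPKM in every library, and Epgn lies below 0.25.

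A change was called at a Benjamini-Hochberg adjusted p under 0.05 in limma on log2(FPKM + 1) and a minimum size on that same scale. The size was 1.3-fold (0.38 on the log2 scale) for EGR1OV, or 1.2-fold (0.26) for H/R against Sham. In EGR1OV against Sham, 4 of the 9 members tested were called, where 16.4% of all genes were called (9.87% higher and 6.51% lower). Egfr and Hbegf, which averaged 51.9 and 161 FPKM in Sham, were lower. Areg and Btc, which averaged 0.508 and 0.858 FPKM in Sham, were higher.

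Among the receptors, Egfr was lower in EGR1OV. Egfr (chr11:16752203-16918158, plus strand) gave 52.8, 52.0 and 50.8 FPKM in Sham and 37.6, 37.3 and 37.9 in EGR1OV. Every EGR1OV library lay below every Sham library. The mean fell from 51.9 ± 0.961 to 37.6 ± 0.343 FPKM, which is 0.725 times the Sham level, with a log2 difference of -0.45 (SE 0.028, adjusted p = 1.31e-06). In bulk RNA, fewer cells of a type and less RNA per cell cannot be told apart. The antisense gene Egfros shares 15272 bases of gene span with Egfr and stood at 0.208 to 0.302 FPKM, and whether counting used strand is not given in the sources used here.

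The partners of Egfr were not called. Erbb2 (chr11:98412470-98437716, plus strand), the co-receptor without a known ligand, was at 8.46, 8.23 and 8.37 FPKM in Sham and at 8.96, 9.78 and 9.08 in EGR1OV. Its libraries did not overlap, but the log2 difference of 0.13 (SE 0.043, adjusted p = 0.0285) was below the size threshold. With median-ratio scaling and quantile normalization, the limma adjusted p of Erbb2 was 0.0601 and 0.568. Erbb3 (chr10:128567523-128589652, minus strand), the neuregulin receptor, was at 4.82, 4.82 and 5.01 FPKM in Sham and at 4.84, 5.51 and 5.12 in EGR1OV. These values overlapped, and the log2 difference was 0.06 (SE 0.061, adjusted p = 0.435).

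The inhibitor Errfi1 (chr4:150853919-150868892, plus strand) was at 54.9, 57.6 and 58.3 FPKM in Sham and at 60.9, 61.6 and 60.5 in EGR1OV. The groups did not overlap, and the log2 difference of 0.10 (SE 0.031, adjusted p = 0.0278) was below the size threshold. With median-ratio scaling and quantile normalization, the limma adjusted p of Errfi1 was 0.0894 and 0.455. Errfi1 stood at 1.10 ± 0.0538 times the level of Egfr in Sham and at 1.62 ± 0.03 times in EGR1OV. The libraries of the groups did not overlap in this ratio. An exact two-sided permutation test of 3 against 3 libraries cannot go below p = 0.1, and this ratio reached that p.

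Among the ligands, Hbegf, which also binds Erbb4, was lower in EGR1OV. Hbegf (chr18:36504929-36515805, minus strand) was at 160.0, 162 and 160.0 FPKM in Sham and at 118, 121 and 123 in EGR1OV. The groups did not overlap. The mean fell from 161 ± 1.36 to 121 ± 2.49 FPKM, which is 0.752 times the Sham level, with a log2 difference of -0.41 (SE 0.023, adjusted p = 6.37e-07). The Hbegf to Egfr ratio was 3.03, 3.12 and 3.14 in the libraries of Sham and 3.14, 3.26 and 3.24 in those of EGR1OV. The exact permutation p was 0.2, in a test that cannot go below 0.1 with 3 against 3.

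Areg (amphiregulin, a ligand of Egfr) was higher in EGR1OV. Areg (chr5:91139599-91148432, plus strand) was at 0.400, 0.425 and 0.698 FPKM in Sham, from 8 to 14 reads. It was at 1.09, 1.51 and 1.42 FPKM in EGR1OV, from 22 to 30 reads. No library overlapped, and the mean rose 2.64-fold, from 0.508 ± 0.165 to 1.34 ± 0.221 FPKM. On the log2(FPKM + 1) scale, which understates changes of low genes, the difference was 0.64 (SE 0.129, adjusted p = 0.00308), against 1.27 with a pseudocount of 0.1 and 1.39 with limma voom on the recovered reads.

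Btc (betacellulin, which binds Egfr and Erbb4) rose with it. Btc (chr5:91357261-91402994, minus strand) was at 0.848, 0.761 and 0.965 FPKM in Sham and at 1.85, 1.64 and 1.53 in EGR1OV. The groups did not overlap, from 60 to 72 reads in Sham and 116 to 139 in EGR1OV. The mean rose 1.95-fold, with a log2 difference of 0.52 (SE 0.074, adjusted p = 0.000346), against 0.89 with a pseudocount of 0.1 and 0.96 with voom.

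Tgfa (transforming growth factor alpha) did not reach the size threshold. Tgfa (chr6:86195223-86275719, plus strand) was at 3.25, 3.63 and 3.42 FPKM in Sham and at 3.93, 4.27 and 4.78 in EGR1OV. The groups did not overlap, and the means differed 1.26-fold (log2 difference 0.26, SE 0.067, adjusted p = 0.0104). Ereg (epiregulin; chr5:91074622-91093646, plus strand) was at 0.884, 1.07 and 0.983 FPKM in Sham and at 0.846, 0.993 and 1.04 in EGR1OV, with a log2 difference of -0.015 (SE 0.094, adjusted p = 0.912). Its libraries overlapped. Ereg shares 152 bases with the antisense gene Gm19610, which stood at 1.87 to 2.74 FPKM, and reads of this pair cannot be told apart if counting ignored strand. Epgn (epigen; chr5:91027464-91035215, plus strand) was not tested, at 0 to 7 reads per library. Its Sham libraries were at 0.236, 0.0317 and 0.067 FPKM, its EGR1OV libraries at 0.0333, 0.0339 and 0.0987, and its H/R libraries at 0.137, 0.0903 and 0. The library listed at 0 allows up to 0.0936 FPKM, the level of 3 reads.

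The 5 ligands other than Hbegf summed to 5.89 ± 0.257 FPKM in Sham and 8.35 ± 0.557 in EGR1OV, and the 6 ligands to 167 ± 1.38 and 129 ± 3.05. Hbegf accounted for 93.5% ± 0.281 of the sum in EGR1OV. The 3 receptors summed to 65.1 ± 0.903 and 52.0 ± 0.565, of which Egfr made up 79.7% and 72.3%. Each of these differences had an exact permutation p of 0.1, the smallest that 3 against 3 allows.

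Among the cell type markers, those of macrophages and leukocytes moved most with EGR1OV. The 10 macrophage and leukocyte genes summed to 154 to 160.0 FPKM in Sham, 130.0 to 140.0 in H/R and 28.1 to 33.2 in EGR1OV. All 9 tested of them were lower in EGR1OV than in Sham, and 8 of 9 were lower than in H/R, and Lyz2 in Sham and EGR1OV stood at 57.7 and 5.46 FPKM. The 16 tubular epithelial genes summed to 2230 to 2270 FPKM in Sham and 1480 to 1600 in EGR1OV, with 6 lower and 1 higher of 14 tested, and the 8 endothelial genes to 12.2 to 13.1 and 8.99 to 9.43, with 1 lower of 6. The 9 fibroblast genes summed to 37.4 to 39.2 FPKM in Sham, 45.3 to 45.7 in H/R and 41.7 to 46.3 in EGR1OV. In EGR1OV against Sham 1 of 6 tested was higher and 1 lower. Of all genes tested, 9.87% were higher and 6.51% lower in EGR1OV than in Sham, and 6.94% were lower than in H/R. After H/R 2 of the 9 macrophage and leukocyte genes were lower and 3 of 6 fibroblast genes were higher than in Sham. Of all genes tested, 2.65% were lower and 1.6% higher in that comparison. The part of these markers in the changes of the EGF receptor family was not tested.

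**Figure D2:**
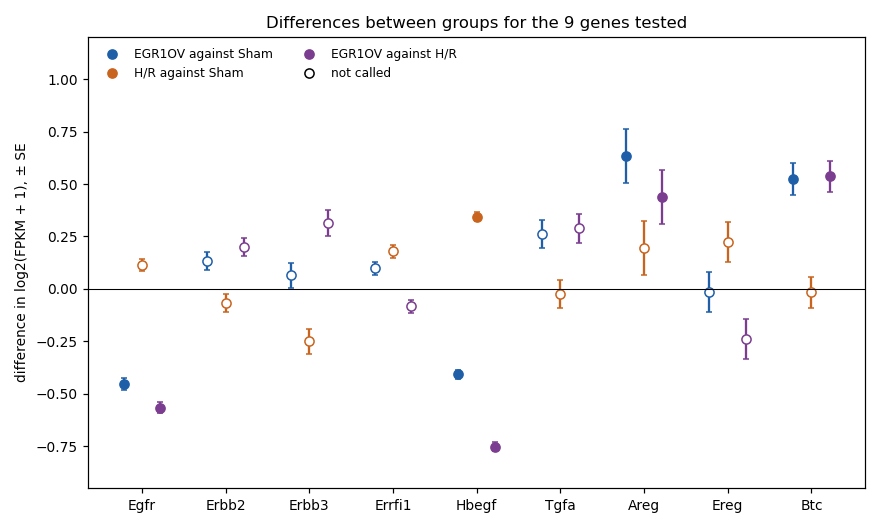
Log2 differences on the log2(FPKM + 1) scale with their SE for the 9 tested members in the 3 comparisons; filled points are called and open points are not. Egfr and Hbegf lie below 0 in both EGR1OV comparisons, and Areg and Btc above 0.

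After H/R, 1 of the 9 members was called, where 4.25% of all genes were called (1.6% higher and 2.65% lower). Hbegf was at 204, 207 and 202 FPKM in the H/R libraries, above every Sham library. The mean rose from 161 ± 1.36 to 204 ± 2.27 FPKM, 1.27-fold (log2 difference 0.345, SE 0.023, adjusted p = 0.00011). This comparison shares the Sham libraries with that of EGR1OV.

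The receptors were not called after H/R. Egfr was at 54.8, 55.6 and 58.1 FPKM in H/R, above every Sham library, with a log2 difference of 0.11 (SE 0.028, adjusted p = 0.0342) below the size threshold. Over the alternative fits the adjusted p of Egfr ranged from 0.00582 to 0.106. Erbb3 was at 3.76, 3.73 and 4.38 FPKM, below every Sham library, with a mean of 0.81 times the Sham level. Its log2 difference of -0.25 (SE 0.061, adjusted p = 0.0325) lay just under the size threshold of 0.26 on the log2(FPKM + 1) scale. With a pseudocount of 0.1, with voom, or without H/R replicate 3, Erbb3 passed, at -0.30, -0.31 and -0.31. Erbb2 was at 7.91, 8.26 and 7.62 FPKM, and its log2 difference of -0.07 (SE 0.043) had an adjusted p of 0.339.

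Errfi1 was at 66.2, 62.5 and 65.1 FPKM in H/R, above every Sham library, with a log2 difference of 0.18 (SE 0.031, adjusted p = 0.00809), below 1.2-fold. The other ligands were not called. Ereg was at 1.2, 1.12 and 1.64 FPKM, with no overlap with Sham but an adjusted p of 0.16 (log2 difference 0.22, SE 0.094). Areg was at 1.02, 0.672 and 0.510 FPKM, overlapping Sham (adjusted p = 0.362). Tgfa was at 3.59, 3.26 and 3.22 FPKM and Btc at 0.820, 0.794 and 0.898, with log2 differences of -0.025 (adjusted p = 0.856) and -0.015 (adjusted p = 0.925). Both overlapped Sham.

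The direct comparison of EGR1OV with H/R tested whether the changes differed. Here 4 of 9 members were called, where 18.9% of all genes were (11.9% higher and 6.94% lower), and they were the same genes as against Sham. Hbegf in EGR1OV was at 0.592 times its H/R level (log2 difference -0.75, SE 0.023, adjusted p = 6.97e-09) and Egfr at 0.67 times (-0.57, SE 0.028, adjusted p = 2.61e-07). Btc was higher by 0.54 (SE 0.074, adjusted p = 0.000254) and Areg by 0.44 (SE 0.129, adjusted p = 0.0181). The call of Areg rested on single libraries, since its adjusted p was 0.0531 without H/R replicate 2, 0.0652 without H/R replicate 3, 0.0634 without EGR1OV replicate 2 and 0.0543 without EGR1OV replicate 3, and 0.0565 with the Gm23935 covariate, which was added after the data were seen.

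Erbb3 differed by 0.31 (SE 0.061, adjusted p = 0.0022) and Tgfa by 0.29 (SE 0.067, adjusted p = 0.0058). Both lay below the size threshold on the log2(FPKM + 1) scale, while their mean FPKM differed 1.3-fold and 1.29-fold. With voom Erbb3 was called, at 0.383. Erbb2 differed by 0.20 (SE 0.043, adjusted p = 0.00335), also below the size threshold. Ereg (-0.24, adjusted p = 0.0604) and Errfi1 (-0.08, adjusted p = 0.0505) did not pass, though voom called Ereg at -0.44 (adjusted p = 0.0285). The Hbegf to Egfr ratio was 3.64 ± 0.139 in H/R, above Sham and EGR1OV in every library.

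**Figure D3:**
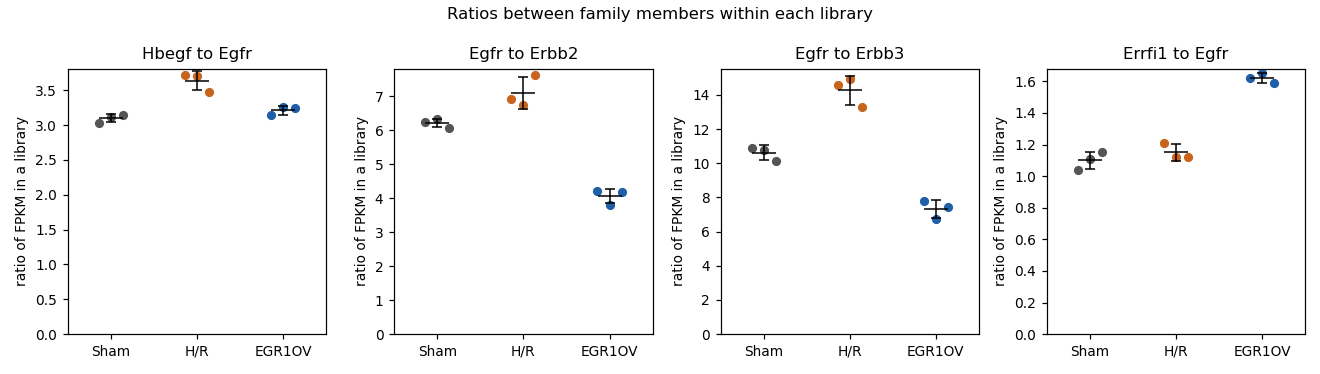
Ratios of FPKM between members (Hbegf to Egfr, Egfr to Erbb2, Egfr to Erbb3 and Errfi1 to Egfr) by group on linear axes from 0; points are libraries and bars are the mean ± SD of 3 libraries. The Errfi1 to Egfr ratio is highest in EGR1OV, and the Egfr to Erbb3 ratio is highest in H/R.

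Egfr stood at 6.21 ± 0.123 times Erbb2 in Sham cells and 4.06 ± 0.221 times in EGR1OV cells, with 7.10 ± 0.468 after H/R. Against Erbb3 the ratio was 10.6 ± 0.424 in Sham, 7.31 ± 0.512 in EGR1OV and 14.2 ± 0.861 in H/R. For both ratios the libraries of the 3 groups did not overlap, and each pair of groups had the exact permutation p of 0.1. Errfi1 to Egfr was 1.15 ± 0.0482 in H/R and overlapped Sham (exact permutation p = 0.4).

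The members Epgn, Ereg, Areg and Btc lie in a 376 kb stretch of chromosome 5, and the table lists 3 other rows between them. Of these ligands, Areg and Btc were called in EGR1OV, Ereg was not, and Epgn was too low to test. The antisense gene Gm19610 was tested, while Gm23092 and Gm19619 were too low.

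Profiles most like that of Egfr were sought as the smallest root mean square difference of centred log2(FPKM + 1) over the 9 libraries, among 7168 genes at 5 FPKM or more. Cxadr, the coxsackievirus and adenovirus receptor, came first at 0.0176, with 25.7 FPKM in Sham, 18.2 in EGR1OV and 27.8 in H/R. Slc7a1, a cationic amino acid transporter, followed at 0.0205 and Lrrfip1 at 0.033. For Areg, the tested ligand with the largest log2 difference in EGR1OV against Sham, these were Dapp1 (0.11), Zfp35 (0.1161) and Phyh (0.118). Areg had 8 to 30 reads per library, while the genes searched were at 5 FPKM or more. Its distances therefore cannot be compared with those of Egfr.

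The pathway around the family was described with 100 genes in 7 lists, of which 94 were tested. In EGR1OV against Sham 13 (13.8%) were higher and 7 (7.45%) lower, where 9.87% and 6.51% of all genes were, with a median log2 difference of 0.06 against 0.02 over all genes tested. The list of sheddases and iRhoms held 3 higher and 4 lower of 11. It also includes Timp3, a metalloprotease inhibitor and not a sheddase, which was among those lower. Adam8 stood at 4.66 ± 0.399 against 1.33 ± 0.144 FPKM (log2 difference 1.28, adjusted p = 1.02e-06). Adam19 differed by -0.96 (adjusted p = 2.49e-07) and Adam12 by -0.77 (adjusted p = 1.29e-08). The main sheddases Adam17 (0.11) and Adam10 (0.07), named after their values were seen, were not called.

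In the cascade list 2 of 15 were higher, Map2k1 (MEK1; 39.4 ± 0.369 to 61.8 ± 1.42 FPKM, log2 difference 0.64, adjusted p = 4.98e-07) and Ksr1, a scaffold, at 0.40 (adjusted p = 0.00155). Of the 14 adaptors 1 was lower, Irs2 at -0.45 (adjusted p = 0.000112). None of the 13 PI3K-Akt genes was called by limma, 8 had an unadjusted p under 0.05 and 1 was called by voom. Of the 21 turnover genes, Lrig1, a transmembrane inhibitor of the receptors, was higher at 25.4 ± 0.566 against 11.8 ± 0.363 FPKM (1.05, adjusted p = 1.35e-08). Cblc (0.54, adjusted p = 0.000171) was higher and Nedd4 (-0.44, adjusted p = 4e-07) lower, both ubiquitin ligases. Of the 19 transcripts induced by ERK signalling, 6 were higher and 1 lower, with a median of 0.22. Atf3 (1.22, adjusted p = 2.2e-06) and Fos (1.06, adjusted p = 1.57e-06) were higher, and Maff (-0.72, adjusted p = 2.4e-06) was lower.

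After H/R 6 of the 94 genes (6.38%) were higher and 1 (1.06%) lower, where 1.6% and 2.65% of all genes were, with a median of 0.005 against -0.03 over all genes tested. Dusp6, an ERK phosphatase, rose from 22.8 ± 0.947 to 28.7 ± 0.365 FPKM (0.32, adjusted p = 0.000844), and Spry4, an inhibitor of receptor signalling, by 0.285 (adjusted p = 0.0118). Egr2 (0.675, adjusted p = 0.0049) and Phlda1 (0.55, adjusted p = 0.0129) rose and Atf3 (-0.42, adjusted p = 0.0132) fell. No gene of the adaptors, the cascade, the PI3K-Akt branch or the sheddases was called by limma or by voom after H/R, and 1, 4, 5 and 7 of them had an unadjusted p under 0.05.

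In EGR1OV against H/R 10 of the 94 (10.6%) were higher and 14 (14.9%) lower, where 11.9% and 6.94% of all genes were, with a median of 0.05 against 0.055 over all genes tested. Among them were Atf3 (1.63, adjusted p = 2.61e-07), Adam8 (1.28, adjusted p = 9.47e-07), Fos (1.10, adjusted p = 1.08e-06) and Lrig1 (0.95, adjusted p = 2.62e-08) upward, and Adam19 (-1.07, adjusted p = 1.08e-07), Maff (-0.94, adjusted p = 3.44e-07) and Timp3 (-0.74, adjusted p = 4.54e-07) downward. Cblc (0.68, adjusted p = 3.04e-05) and Map2k1 (0.61, adjusted p = 6.36e-07) were higher. Pik3cb (-0.455, adjusted p = 7.32e-06), Irs2 (-0.40, adjusted p = 0.000193) and the receptor phosphatase Ptprk (-0.39, adjusted p = 2.6e-06) were lower.

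**Figure D4:**
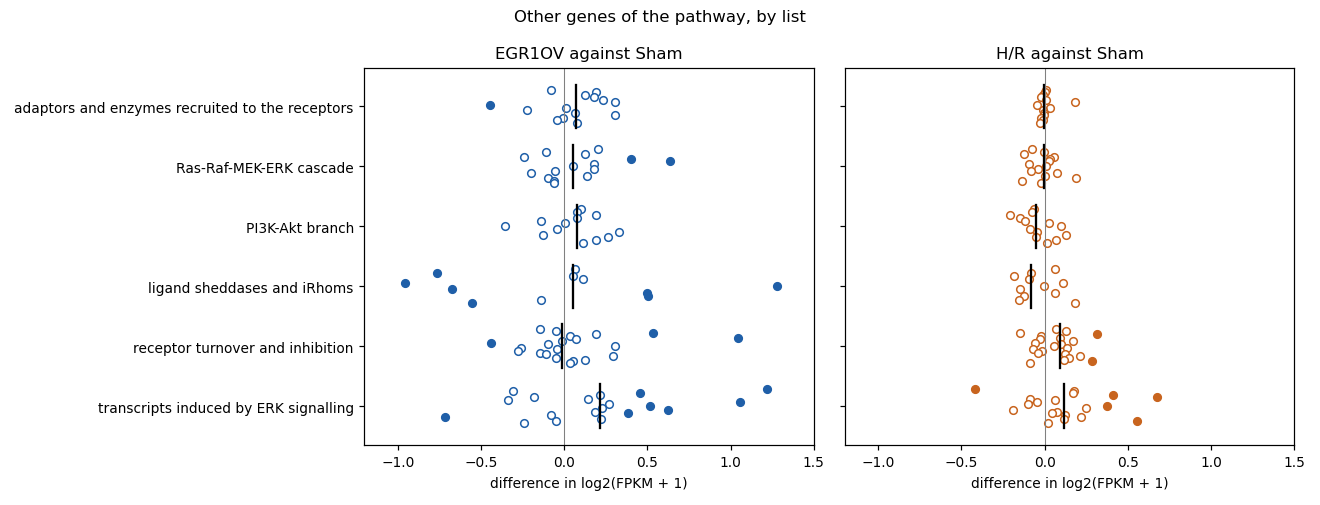
Differences in log2(FPKM + 1) of each tested gene in 6 pathway lists for EGR1OV and for H/R against Sham; points are genes, filled where called, and the black tick is the list median. The sheddase list spans -0.96 to 1.28 in EGR1OV against Sham.

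Of the other ErbB genes Nrg1, a neuregulin that binds Erbb3, was tested. It was at 10.5, 10.5 and 9.81 FPKM in Sham cells, and its EGR1OV libraries gave 8.18, 8.19 and 8.94. After H/R it was at 11.3, 12.6 and 11.2. It was lower in EGR1OV than in H/R by 0.42 (adjusted p = 0.00015) and was not called against Sham (-0.26, adjusted p = 0.00362). Erbb4 was at 2 to 9 reads, Egf at 13 to 36, Nrg2 at 7 to 31 and Nrg4 at 9 to 24, and Nrg3 was not analysed here.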

How the data were processed

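RNA sequencing of 9 libraries was deposited by the authors as one table of FPKM per gene, 1 column for each library, without pooling. Per the labels, the submitters' processing notes name HISAT2 2.1.0, Bowtie2 2.2.3, TopHat2 and mm9, with no role or order. The counter and the annotation are not given in the sources used here. GENCODE M21 held 99.8% of the identifiers and had the same position for 94.6% of genes, and coordinates are therefore given as GRCm38. In 26 rows a symbol turned into a date was restored.

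A filter at a mean of 0.5 FPKM left 13985 genes. Their log2(FPKM + 1) values entered limma 3.58.1 under R 4.3.3, with all libraries together and a variance trend, and two-sided tests had Benjamini-Hochberg adjustment over all of them. The fold thresholds against Sham are those of the study, and the third was chosen here. Groups and replicate numbers come from the sample titles. Low values gave whole reads with GENCODE M21 exon lengths: 94% of 162886 recovered values were whole within 0.02 reads, though those of Hbegf were not. The floor of 3 reads covers counting error alone, because the reads carried no molecular identifiers. Ratios and sums were compared by exact two-sided permutation tests.

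The members and gene lists were chosen with earlier results of these data known. All members and Egr1 are named, with up to 3 called genes of each pathway list and comparison by size of change, and the 3 genes most like Egfr and the ligand most changed in EGR1OV against Sham. A gene that this rule picks is not reported here. Alternatives were a pseudocount of 0.1, no filter and a mean of 5 FPKM, the replicate block, quantile normalization and median-ratio scaling, no variance trend, a fit of the compared groups, voom on recovered reads, no fold threshold, a 2-fold threshold and leaving out each library, with a Gm23935 covariate added after the data were seen. Tables were made with Python 3.11.15 (pandas 2.3.3, numpy 2.4.6), permutation tests with scipy 1.17.1 and figures with matplotlib 3.10.9.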

Additional observations from a re-analysis of the deposited data

Results flagged for a closer look

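In the direct comparison of EGR1OV with H/R, on the log2(FPKM + 1) scale, 4 members passed the thresholds for adjusted p and size. EGR1OV minus H/R was -0.57 for Egfr, -0.75 for Hbegf, 0.44 for Areg and 0.54 for Btc. Over the alternative fits the adjusted p of Areg reached 0.0652. Erbb2, Erbb3 and Tgfa had a limma adjusted p of 0.00335, 0.0022 and 0.0058 but lay below the size threshold. The changes in EGR1OV and after H/R are both taken from the same Sham libraries. The cause was not tested.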

How the results depend on the processing

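Counts of called members were 4, 1 and 4 of 9 in EGR1OV against Sham, H/R against Sham and EGR1OV against H/R, and 20, 7 and 24 of the 94 pathway genes. Without a fold threshold they were 7, 4 and 7 members and 57, 18 and 65 pathway genes, where 45.9%, 11.7% and 51.0% of all genes tested were called. Of these members, Erbb2, Errfi1 and Tgfa in EGR1OV against Sham had an adjusted p above 0.05 in at least 1 alternative. So did Egfr and Erbb3 after H/R, and Areg, Erbb2 and Tgfa in EGR1OV against H/R. At 2-fold, which called 3.46%, 0.0787% and 3.5% of all genes, limma called 0, 0 and 0 members, where 7, 5 and 9 had an unadjusted p under 0.05 and voom called 1, 0 and 0, and 4, 0 and 4 pathway genes (64, 42 and 70 with an unadjusted p under 0.05, and 5, 1 and 6 by voom). At a mean of 5 FPKM, which leaves 4 members, 2 were called in each EGR1OV comparison. After H/R 2 members were called with a pseudocount of 0.1 and with voom, and 1 to 2 when a library was left out.

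Direction changed for 4 results that were never called. Erbb3 in EGR1OV against Sham was -0.007 with quantile normalization. Ereg there ranged from -0.05 to 0.027 when a library was left out. After H/R, Tgfa was 0.006 with median-ratio scaling and 0.014 with quantile normalization and ranged from -0.063 to 0.007 when a library was left out, and Btc was 0.003 and 0.016 and ranged from -0.053 to 0.026. The cause was not tested. Scaling also moved the split of all calls, from 1381 higher and 910 lower to 1059 and 1247 with quantile normalization in EGR1OV against Sham, from 224 and 370 to 314 and 228 with median-ratio scaling after H/R, and from 1670 and 971 to 1112 and 1506 with quantile normalization in EGR1OV against H/R.

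Of 9 same-numbered pairs of libraries the deviations correlated at -0.195 to 0.263, with 2 above 0.1, so the numbers were not taken to pair the samples. With the replicate block 4, 1 and 4 members and 20, 7 and 24 pathway genes were called. Areg, Epgn, Btc and Ereg rest on few reads, which limits their precision.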
